A study of Homo sapiens with 12 samples.

Results

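PCAT14 is a long noncoding RNA gene on chromosome 22, in band 22q11, whose annotated start lies inside a cluster of target sites of guides designed against HERVK LTR5HS. It was described together with 8 genes of the same region, namely IGLL1, RGL4, GUSBP11, ZNF70 and VPREB3 downstream and BCR, RAB36 and GNAZ upstream. These 9 members of the 26641 genes in the count table were listed by symbol and were selected on their log2 fold changes between LTR5HS recruitment and control within each fusion, which were already known. Those changes are therefore given as descriptions, and where a count past the threshold is given for them it supports nothing.

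The study asked how host genes respond when LTR5HS elements are activated or silenced together. RNA was sequenced from NCCIT cells, a human embryonal carcinoma line, with 12 libraries from 6 transgenic lines and 2 replicates per line. Every line carried nuclease-dead Cas9 of S. pyogenes, under a doxycycline-inducible promoter, joined to the activator VPR (CRISPRa) or to the repressor KRAB (CRISPRi), and every line received doxycycline for 4 days. Each fusion was paired with 1 of 3 CARGO guide arrays. The LTR5HS Sp array has the S. pyogenes scaffold and brings the fusion to LTR5HS (recruitment, 2 libraries per fusion). Its guides also match part of the related LTR5A and LTR5B elements, and which class of element lies at PCAT14 was not tested. The LTR5HS Sa array has the same targets on an S. aureus scaffold that this dCas9 does not bind, and the nontarget Sp array has no genomic target, so both served as control (4 libraries per fusion). The transgenes were integrated with PiggyBac and the lines were drug-selected populations rather than single clones, so line and array cannot be told apart.

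Library totals ran from 13601701 to 69797411 assigned reads, and the deepest library was a dCas9-KRAB nontarget Sp library. Levels are given as CPM, the read count scaled to TMM-normalized library sizes, and a count of 3 corresponded to 0.0455 to 0.233 CPM. As labels of the cell type, 10 embryonal carcinoma markers, among them POU5F1, SOX2 and NANOG, were checked and had reads in every group. Their summed level was 1166 to 1793 CPM in the dCas9-VPR control libraries and 5153 to 6406 CPM in the dCas9-KRAB control libraries.

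LTR5HS is the youngest class of long terminal repeat of the HERVK (HML-2) endogenous retroviruses. A long terminal repeat holds the promoter of a provirus and can serve as promoter or enhancer of host genes, and several noncoding transcripts are known to start in one. PCAT14 is best known from prostate cancer. The other members have unrelated roles. IGLL1 and VPREB3 encode a surrogate light chain component and a related protein of developing B cells, RGL4 encodes an exchange factor of the Ral GTPase family, and GUSBP11 is a transcribed relative of the beta-glucuronidase gene. ZNF70 encodes a zinc finger protein, RAB36 a Rab GTPase, GNAZ the alpha subunit of the G protein Gz, and BCR the partner of ABL1 in the Philadelphia chromosome.

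The guides with exact sites at PCAT14 are printed because they show which parts of the array could reach its promoter. Of the 12 designed guides of 16 nt, 5 matched within 600 bp of the annotated start (chr22:23536881 of GRCh38, plus strand). The sites spanned chr22:23536480-23536940. A sixth guide, LTR5HS-4, matched only in intron 1. Each sequence below is read 5′ to 3′ on the strand of the guide, in the order of the sites along PCAT14, and the capitals mark the NGG motif beside the target.
LTR5HS-8: taaagggtctgtgctgAGG
LTR5HS-9: gacattccattgcccaGGG
LTR5HS-3: aaaactgccttagggcTGG
LTR5HS-6: taccatctcggagaggGGG
LTR5HS-10: atagagaaagaaaagtGGG
LTR5HS-4: agcccgacacccgtaaAGG

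Relative to the start, 401 bp upstream lay the site of LTR5HS-8, 311 bp upstream that of LTR5HS-9, 251 bp upstream that of LTR5HS-3 and 58 bp upstream that of LTR5HS-6. LTR5HS-10 matched 44 bp downstream of the start, inside exon 1. LTR5HS-8 matched a second time at 1276 bp in intron 1, next to LTR5HS-4 at 1263 bp. With 1 mismatch allowed, the sites around the start rose from 5 to 8.

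**Figure D1:**
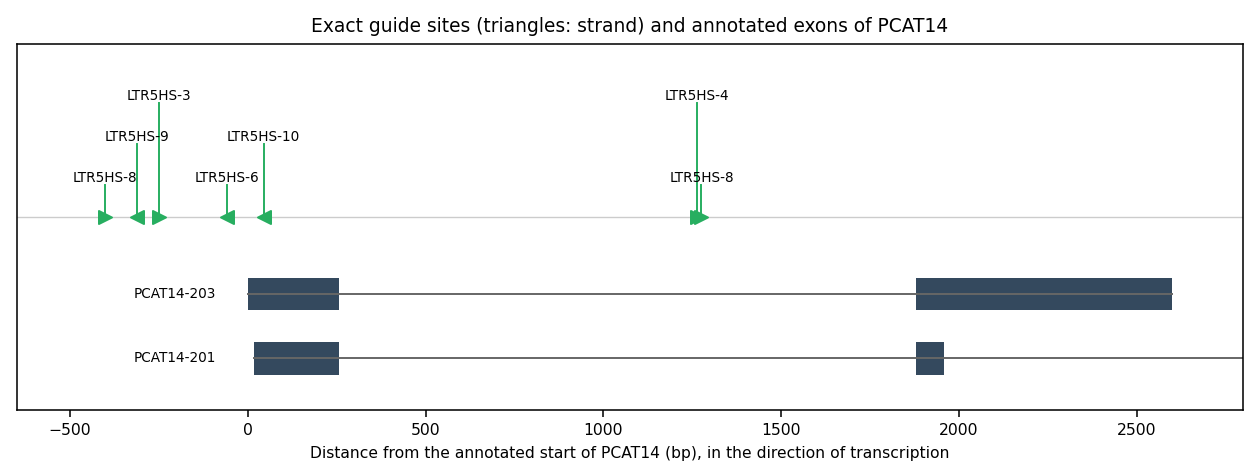
Exact guide sites around the start of PCAT14 (x axis, bp from the annotated start in the direction of transcription). Triangles mark the start coordinate of each site and point along its strand, and boxes are the exons of 2 GENCODE transcripts within the plotted range. The plot shows 5 sites between -401 and 44 bp and 2 sites in intron 1.

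Over the genome, the 12 guides had 2938 exact sites, which formed 648 clusters of at least 2 sites. PCAT14 was the 1 gene of 24990 with a start position whose start lay inside a cluster, and 10 genes (0.04%) had a start within 1000 bp of one. LTR5HS-3, which matched at PCAT14, differs from LTR5HS-2 by the substitution C6T, with the LTR5HS-2 base first and positions counted from 1 at the 5′ end. LTR5HS-3 had 73 sites in the genome and LTR5HS-2 had 294.

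aaaaccgccttagggcTGG is the LTR5HS-2 target found in the clusters that began 370.5 and 674.4 kb downstream of PCAT14. A cluster 887.4 kb upstream and one 1093.7 kb downstream held LTR5HS-3 instead, as PCAT14 did. The nearest cluster lay at the PCAT14 locus for IGLL1, RGL4, GUSBP11, RAB36 and BCR, at 42.1 kb for IGLL1, 150.0 kb for RGL4, 179.2 kb for GUSBP11, 391.1 kb for RAB36 and 356.8 kb for BCR. It lay at the downstream cluster for VPREB3 (153.0 kb) and ZNF70 (156.3 kb), and at the upstream cluster for GNAZ (420.5 kb).

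PCAT14 had the widest range of the members. In dCas9-VPR cells its level was 459 and 508 CPM with LTR5HS Sp, 9.95 and 6.21 CPM with LTR5HS Sa, and 3.87 and 2.68 CPM with nontarget Sp. Both recruitment libraries lay above all 4 control libraries, at 483 ± 34.8 CPM (SD, n = 2) against 5.68 ± 3.20 CPM (SD, n = 4), a ratio of 85.1. The fitted log2 fold change was 6.40 ± 0.40 (SE) and ranked 41 from the top of 16271 tested genes. It was 5.89 against LTR5HS Sa alone and 7.21 against nontarget Sp alone.

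In dCas9-KRAB cells PCAT14 stood at 1.06 and 0 CPM with LTR5HS Sp, from 19 and 0 reads. It stood at 30.5 and 20.6 CPM with LTR5HS Sa and at 47.8 and 34.6 CPM with nontarget Sp. Both recruitment libraries lay below all 4 control libraries, at 0.532 ± 0.753 CPM (SD, n = 2) against 33.4 ± 11.3 CPM (SD, n = 4), a ratio of means of 62.8. For the library without reads, 3 counts would be 0.203 CPM. The fitted log2 fold change of -5.85 ± 0.64 (SE) had rank 6 from the bottom of 15520 tested genes. Without LTR5HS Sp replicate 2 it was -4.97. Without replicate 1 the remaining recruitment library had 0 reads, and the fitted value of -12.83 is then no measure of size. In these bulk libraries, fewer cells with the transcript and less transcript per cell cannot be told apart.

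**Figure D2:**
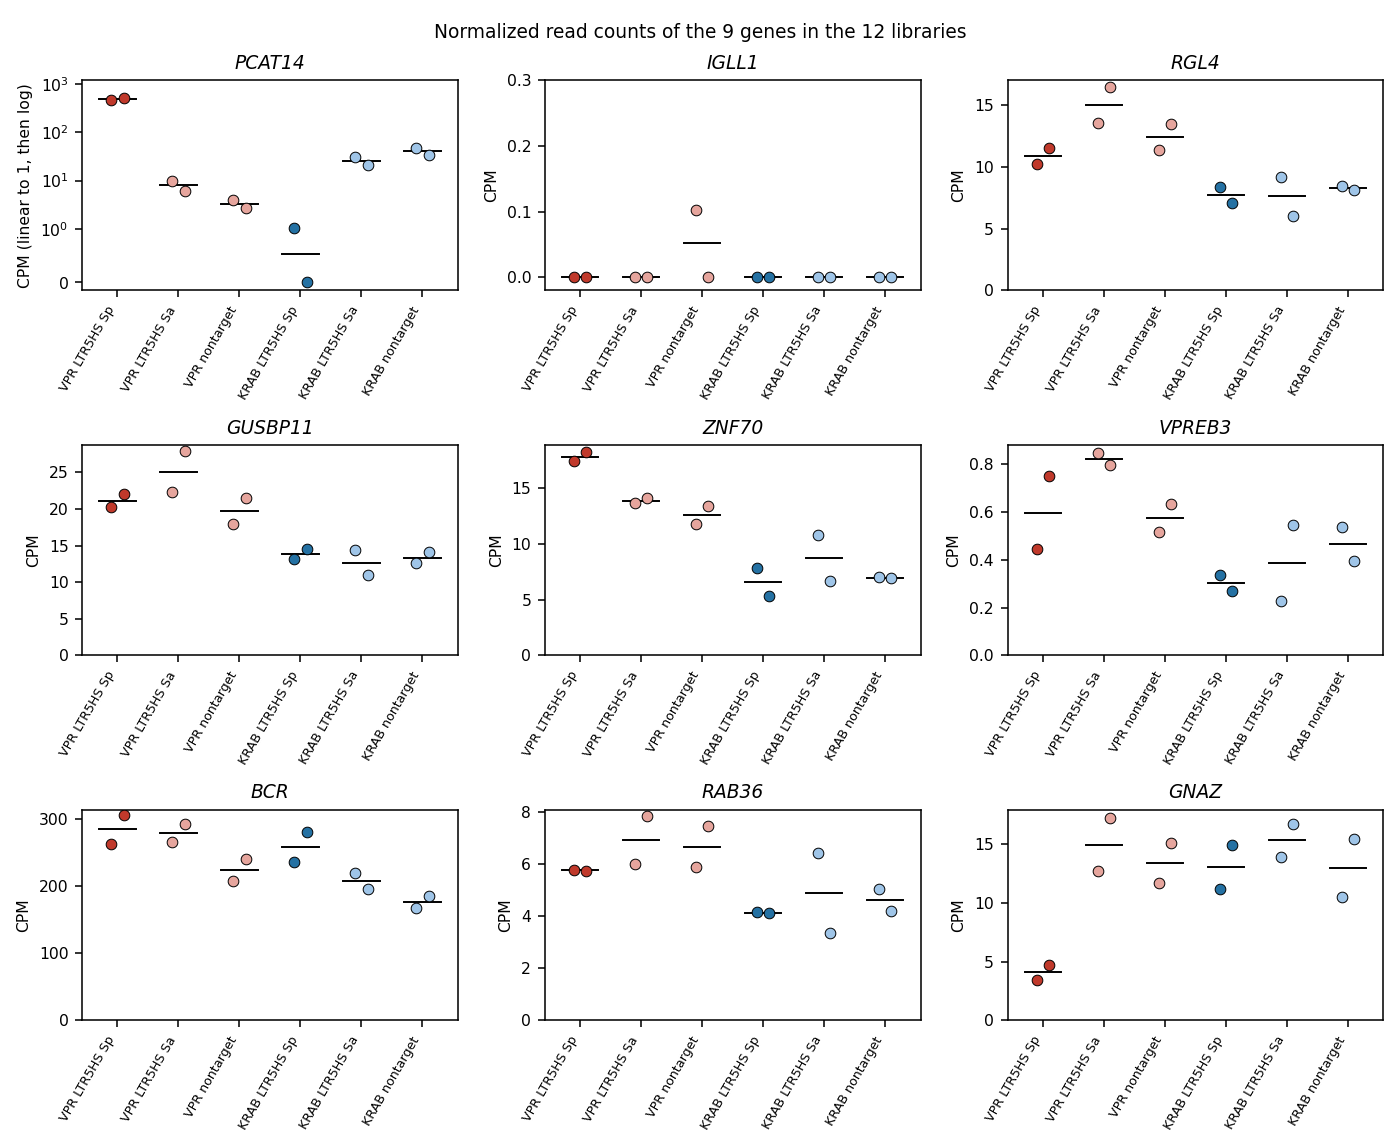
CPM of the 9 members in each library (points, 2 per line) with the mean of each line (bars), with dCas9-VPR lines in red and dCas9-KRAB lines in blue. The PCAT14 axis is linear up to 1 CPM and logarithmic above. PCAT14 spans 0 to 508 CPM, GNAZ is at 3.45 and 4.76 CPM with dCas9-VPR LTR5HS Sp and at 10.5 CPM or more elsewhere, and the other members vary less.

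Of the 9 members, 8 passed the filter on low counts with dCas9-VPR, and 2 had an adjusted p under 0.05 in the edgeR quasi-likelihood test, PCAT14 upward and GNAZ downward. Of all genes tested, 28.0% had one. With dCas9-KRAB, 7 members passed the filter, and PCAT14 alone passed the threshold, downward. Of all genes tested there, 2.77% passed it, and 1.94% of all genes did so downward. The members were chosen with these contrasts known, so the counts carry no evidence. With the replicate number as a block, and also with DESeq2, the count for dCas9-VPR was 3, with ZNF70 added.

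The downstream members closest to PCAT14 showed small differences. IGLL1, whose start lies 43.4 kb away and which runs toward PCAT14 on the minus strand, had 2 reads in 1 dCas9-VPR nontarget Sp library and 0 in the other 11. It was below the count of 3 in every library with either fusion and was not tested. A response of IGLL1 below that level was not detectable at this depth.

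RGL4 and GUSBP11 overlap on opposite strands, with 2468 bp of shared exonic sequence, and the library preparation did not keep the strand, so their reads cannot be told apart there. RGL4 had 10.2 and 11.5 CPM with dCas9-VPR LTR5HS Sp, inside or below a control range of 11.4 to 16.5 CPM. GUSBP11 had 20.21 and 22.02 CPM there, inside a control range of 18.0 to 27.9 CPM. The log2 fold changes were -0.33 ± 0.19 (SE) for RGL4 and -0.08 ± 0.19 for GUSBP11. With dCas9-KRAB they were -0.04 ± 0.20 and 0.09 ± 0.17, and for both genes the recruitment libraries overlapped the control range.

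ZNF70 stood at 17.4 and 18.2 CPM with dCas9-VPR LTR5HS Sp, above the control range of 11.8 to 14.1 CPM. Its log2 fold change was 0.43 ± 0.14 (SE). With dCas9-KRAB the recruitment libraries had 7.84 and 5.28 CPM and overlapped the control range of 6.67 to 10.7 CPM, with a log2 fold change of -0.24 ± 0.26. VPREB3 was near the limit of detection, at 8 and 14 reads with dCas9-VPR LTR5HS Sp and 6 and 4 reads with dCas9-KRAB LTR5HS Sp. The dCas9-VPR means were 0.597 ± 0.214 CPM for recruitment (SD, n = 2) and 0.697 ± 0.152 CPM for control (SD, n = 4). It did not pass the filter with dCas9-KRAB.

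On the upstream side, BCR had 262 and 306 CPM with dCas9-VPR LTR5HS Sp, against 208 to 292 CPM in the control. With dCas9-KRAB it had 236 and 280 CPM against 168 to 219 CPM, so the recruitment libraries lay above every control library. The log2 fold changes were 0.18 ± 0.15 (SE) and 0.43 ± 0.13.

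BCRP3, a sequence copy of part of BCR, begins 1096.0 kb downstream of PCAT14 and 1.83 kb from a guide cluster. It had 33.6 and 44.5 CPM with dCas9-VPR LTR5HS Sp and 0.671 to 1.16 CPM in the control (log2 fold change 5.39 ± 0.22, adjusted p = 3.36e-06, edgeR). It had 0 and 1 read with dCas9-KRAB LTR5HS Sp and 6 to 39 reads in the control, with a log2 fold change of -4.15 ± 0.81 (edgeR adjusted p = 0.0241). The dCas9-KRAB call was lost without LTR5HS Sp replicate 1 (-3.14, edgeR adjusted p = 0.211), LTR5HS Sp replicate 2 (-7.14, adjusted p = 0.0739), LTR5HS Sa replicate 1 (-4.06, adjusted p = 0.0532) or nontarget Sp replicate 2 (-4.12, adjusted p = 0.0517). Whether reads were shared between BCR and BCRP3 was not tested. In dCas9-KRAB cells the direction of BCR was opposite to that of BCRP3.

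RAB36 had 5.79 and 5.72 CPM with dCas9-VPR LTR5HS Sp, just under the control range of 5.88 to 7.85 CPM, and its log2 fold change was -0.24 ± 0.20 (SE). With dCas9-KRAB it had 4.15 and 4.13 CPM inside a control range of 3.34 to 6.43 CPM. GNAZ, the member farthest from PCAT14 at 466.4 kb, had 3.45 and 4.76 CPM with dCas9-VPR LTR5HS Sp. It had 12.7 and 17.2 CPM with LTR5HS Sa, and 11.7 and 15.1 CPM with nontarget Sp. Both recruitment libraries lay below all control libraries, and the control mean was 3.46 times higher, with a log2 fold change of -1.79 ± 0.24 (SE).

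With dCas9-KRAB, GNAZ had 11.20 and 14.96 CPM with LTR5HS Sp and 10.5 to 16.8 CPM in the control, and its log2 fold change was -0.11 ± 0.22. GNAZ shares 274 bp of exonic sequence with RSPH14 on the other strand. RSPH14 had at most 0.736 CPM in the dCas9-VPR libraries, under every GNAZ value. This level does not show how reads in the shared sequence were assigned, which was not tested.

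The recruitment libraries lay wholly outside the control range for 4 of the 8 members tested with dCas9-VPR, PCAT14 and ZNF70 above and GNAZ and RAB36 below, and this held for 49.9% of all tested genes. With dCas9-KRAB it held for 2 of 7 members, BCR above and PCAT14 below, and for 23.3% of all tested genes.

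Levels between genes were compared per kilobase of the deposited gene length (RPKM, here CPM divided by the length in kilobases). In the dCas9-KRAB control PCAT14 (27.8 ± 9.39 RPKM, SD, n = 4) and BCR (27.7 ± 3.14) stood together at the top and did not differ beyond their spread. GNAZ (4.42 ± 0.838), GUSBP11 (3.81 ± 0.456) and RGL4 (2.76 ± 0.463) followed, then ZNF70 (1.95 ± 0.485), RAB36 (1.24 ± 0.344) and VPREB3 (0.727 ± 0.254). The ranges of neighbours in this order overlapped from GNAZ to VPREB3, except for GUSBP11 and RGL4, whose exons overlap. The assignment of reads in that overlap was not tested. In the dCas9-VPR control BCR led with 36.2 ± 5.18 RPKM, and PCAT14 (4.73 ± 2.67) lay between RGL4 (4.75 ± 0.731) and GNAZ (4.43 ± 0.773), with overlapping ranges. With dCas9-VPR LTR5HS Sp PCAT14 reached 402 ± 29.0 RPKM (SD, n = 2) and BCR 41.0 ± 4.43 RPKM. With dCas9-KRAB LTR5HS Sp PCAT14 was at 0.443 ± 0.627 RPKM, beside VPREB3 at 0.519 ± 0.0789.

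To describe the rest of the region, all other genes with a start within 1 Mb of PCAT14 were taken by position. Of these 34 genes, 18 were tested with dCas9-VPR, and 8 rose and 1 fell at an adjusted p under 0.05 (edgeR). Their median log2 fold change was 0.90, against -0.02 over all tested genes, 15.7% of which rose and 12.3% of which fell. CES5AP1 and GGTLC2 had at most 3 and 5 reads in a dCas9-VPR control library and passed the filter through the recruitment libraries. They could enter only as genes higher with recruitment, so the count and the median are a description and no test. With dCas9-KRAB 15 were tested and 1 fell, with a median of -0.01 against 0.00 over all genes. The members lie in the same window and were left out of these counts. Of the 8 members tested with dCas9-VPR, 1 rose and 1 fell, with a median of -0.15, so 0.90 is not the median of the whole window.

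ZDHHC8P1 and CES5AP1, a pair of pseudogenes on the minus strand, were the tested neighbours closest to PCAT14. DRICH1, at 95.4 kb, had at most 4 reads in any library and was not tested. ZDHHC8P1 starts 134.7 kb upstream and had 16.0 and 19.1 CPM with dCas9-VPR LTR5HS Sp against 0.714 to 0.877 CPM in the control (log2 fold change 4.46 ± 0.19, adjusted p = 4.43e-06, edgeR). CES5AP1 starts 159.9 kb upstream and had 43 and 57 reads against 0 to 3 reads (5.61 ± 0.63, edgeR adjusted p = 0.00039). With dCas9-KRAB ZDHHC8P1 had 1 and 0 reads with LTR5HS Sp and 4 to 30 reads in the control, and CES5AP1 had 0 reads against 0 to 2. Neither passed the filter there. Both lie between PCAT14 and BCR.

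GGTLC2, a gamma-glutamyltransferase light chain gene 892.3 kb upstream and 4.82 kb from a guide cluster, rose by 2.77 ± 0.69 on the log2 scale from 0 to 5 reads in the control to 16 and 13 reads. Downstream, GGT5, an enzyme of glutathione and leukotriene metabolism, rose by 2.55 ± 0.42, POM121L9P by 1.85 ± 0.33, SUSD2 by 1.54 ± 0.34 and MMP11, a matrix metalloproteinase, by 1.29 ± 0.41. SMARCB1, a core subunit of the SWI/SNF complex, fell by 1.14 ± 0.29, from 13.9 to 28.4 CPM in the control to 9.80 and 11.7 CPM. The ninth gene, SLC2A11, had the smallest change of these, 1.03 ± 0.19 upward. Their adjusted p-values in edgeR ran from 4.43e-06 (ZDHHC8P1) to 0.0486 (MMP11). POM121L1P, 5.35 kb from the cluster beside GGTLC2, did not pass the threshold with either fusion. Its log2 fold change was upward with both, at 0.77 ± 0.40 with dCas9-VPR and 1.17 ± 0.41 with dCas9-KRAB.

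Several of these calls rested on single libraries. Without LTR5HS Sp replicate 2, 5 neighbours passed the threshold, 1 of them not among the 9, and GGTLC2 (edgeR adjusted p = 0.0782), SMARCB1 (0.0834), SUSD2 (0.0935), SLC2A11 (0.0611) and MMP11 (0.414) did not. Without LTR5HS Sp replicate 1, GGTLC2 (edgeR adjusted p = 0.126), SMARCB1 (0.146) and MMP11 (0.0532) did not. MMP11 also missed it without LTR5HS Sa replicate 1 (edgeR adjusted p = 0.0814), nontarget Sp replicate 1 (0.07) or nontarget Sp replicate 2 (0.0918).

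SUSD2, a cell surface protein known as a marker of naive human pluripotent cells, was the neighbour past the threshold with both fusions. Its start lies 644.6 kb from PCAT14 and 29.8 kb from the cluster at 674.4 kb. It had 139 and 183 CPM with dCas9-VPR LTR5HS Sp against 34.7 to 87.7 CPM. With dCas9-KRAB it had 6.77 and 8.91 CPM against 13.7 to 16.8 CPM, a log2 fold change of -0.94 ± 0.18 (edgeR adjusted p = 0.0222). That call was lost without LTR5HS Sp replicate 2 (-0.76, edgeR adjusted p = 0.22), LTR5HS Sa replicate 1 (-0.93, adjusted p = 0.0554) or nontarget Sp replicate 2 (-0.95, adjusted p = 0.0623). The recruitment and control libraries did not overlap with either fusion.

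**Figure D3:**
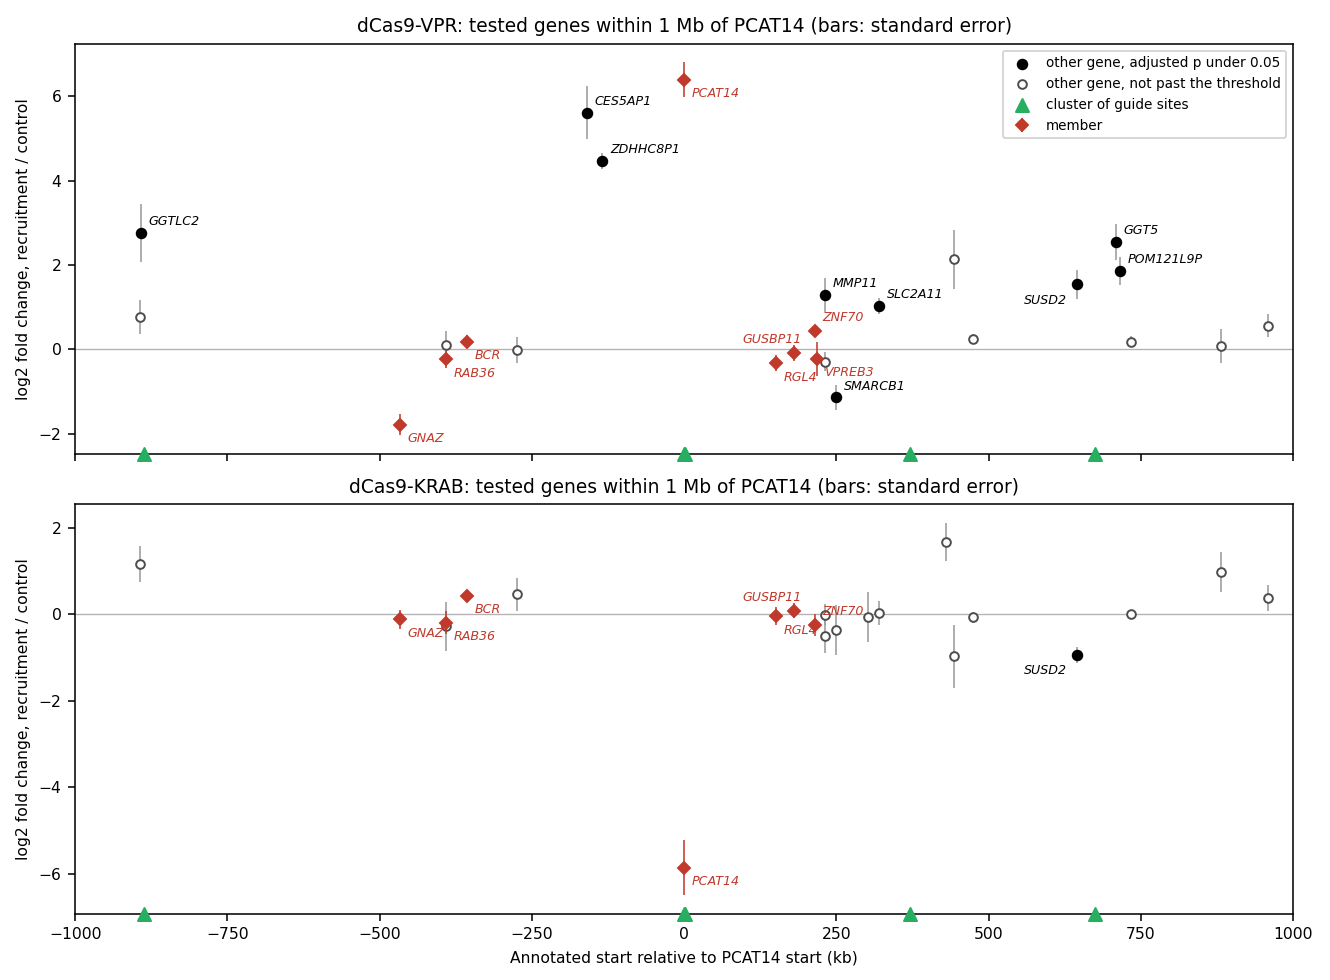
Log2 fold change between recruitment and control with standard error for tested genes within 1 Mb of PCAT14, against the position of the gene start (kb), with dCas9-VPR above and dCas9-KRAB below. Diamonds are members, filled points are other genes with adjusted p under 0.05, open points are other genes past no threshold, and triangles mark clusters of guide sites. PCAT14 stands at 6.40 and -5.85, and the other members lie between -1.79 (GNAZ) and 0.43.

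Lists of genes related to the members by role or sequence were counted against all tested genes, of which 15.7% rose and 12.3% fell with dCas9-VPR and 2.77% passed the threshold with dCas9-KRAB, with medians of -0.02 and 0.00. Of 16 B-lineage genes, 8 were tested with dCas9-VPR, and 4 rose and 1 fell (CD79A by 2.74 ± 0.40 and CD22 by 1.63 ± 0.33 upward, CD79B by 1.84 ± 0.26 downward). CD79A reached 40 reads at most, VPREB1 and MS4A1 had 0 reads in every library, and none of 4 tested genes passed the threshold with dCas9-KRAB. The median over the list was 0.83 with dCas9-VPR and 0.08 with dCas9-KRAB. In the dCas9-VPR control libraries CD79A had at most 7 reads, EBF1 at most 10 and PAX5 at most 6. These 3 passed the filter on low counts through the recruitment libraries, where they were high. The dCas9-VPR count and median of this list therefore support nothing.

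Of 9 genes of the Ral exchange factor and Ral list, only RALGPS1 passed the threshold with dCas9-VPR, downward (-0.85 ± 0.18), with a median of -0.10. None of the 9 did with dCas9-KRAB (median -0.02). The next list held 8 genes for Gi/o/z alpha subunits and RGS proteins, which signal with GNAZ or act on it. With dCas9-VPR, RGS20 (2.38 ± 0.43) and RGS17 (1.00 ± 0.29) rose and GNAZ fell. The other alpha subunits on the list were not past the threshold there, with log2 fold changes from -0.57 (GNAO1) to 0.34 (GNAI1). RGS20 had few reads, 30 to 34 with recruitment and 4 to 13 in the control. None of the 8 passed the threshold with dCas9-KRAB. RGS20 stood at -1.35 ± 0.53 there, from 2 to 10 reads with recruitment, and RGS17 at -0.40 ± 0.37. Of the 10 tested sequence relatives of the members, BCRP3, RAB34 (1.34 ± 0.11) and BCRP2 (2.76 ± 0.70) rose with dCas9-VPR, with a median of 0.13, and BCRP3 fell with dCas9-KRAB, with a median of 0.09 over 9 genes. BCRP2 was near the limit of detection, with at most 17 reads in any library. The relatives of GUSBP11 did not pass the threshold with either fusion.

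Control libraries of the fusions were compared next, since this contrast did not enter the choice of members. Its libraries did, however. A low dCas9-VPR control and a high dCas9-KRAB control each enlarge the changes on which PCAT14 was selected, so its difference is given without a test. PCAT14 was lower in the dCas9-VPR control than in the dCas9-KRAB control, at 2.68 to 9.95 CPM against 20.6 to 47.8 CPM, and the groups did not overlap. The dCas9-KRAB mean was 5.88 times higher, with a log2 fold change of -2.53 ± 0.37 (SE). It was -1.63 with LTR5HS Sa libraries alone and -3.63 with nontarget Sp libraries alone.

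Of the other members, 4 were higher in the dCas9-VPR control and 3 did not pass the threshold. GUSBP11 (0.79 ± 0.16, adjusted p = 0.00134), RGL4 (0.80 ± 0.17, adjusted p = 0.00219), ZNF70 (0.77 ± 0.17, adjusted p = 0.00295) and BCR (0.40 ± 0.12, adjusted p = 0.0144) were the 4 that were higher by edgeR. BCR missed the threshold with nontarget Sp libraries alone (adjusted p = 0.0595). RAB36 (0.53 ± 0.21, adjusted p = 0.0519) and VPREB3 (0.75 ± 0.32, adjusted p = 0.0688) did not pass the edgeR threshold. RAB36 passed it with DESeq2 (adjusted p = 0.0281), with DESeq2 size factors (0.0461), with at least 10 counts in every library (0.0402), with all 12 libraries in a single fit (0.0371), and without dCas9-VPR nontarget Sp replicate 1 (0.0435) or dCas9-KRAB LTR5HS Sa replicate 1 (0.0188), and VPREB3 passed it without dCas9-VPR nontarget Sp replicate 1 (0.0492). GNAZ was at 14.2 CPM in both controls, with a difference of 0.02 ± 0.17 on the log2 scale.

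Those 4 of 7 members stood near the 54.9% of all genes that passed the threshold in this contrast. All 10 embryonal carcinoma markers were lower in the dCas9-VPR control, with a median log2 fold change of -2.28. DPPA4 stood at -2.29 ± 0.13 and NANOG at -5.96 ± 0.39. PCAT14 thus moved with these markers, and their part in its difference was not tested. With dCas9-VPR recruitment the markers summed to 1276 to 1332 CPM and did not leave the range of the dCas9-VPR control. In the dCas9-KRAB recruitment libraries they summed to 4888 and 5173 CPM, against 5153 to 6406 CPM in that control. Singly, L1TD1 was higher (1.62 ± 0.26) and SOX2 (-1.24 ± 0.25) and DNMT3B (-0.62 ± 0.14) were lower with dCas9-VPR recruitment at an edgeR adjusted p under 0.05, and none of the 10 passed it with dCas9-KRAB.

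Of 6 fibroblast markers, the sum was 3019 to 3130 CPM with dCas9-VPR recruitment and 110 to 175 CPM in its control. COL1A1 made up 2897 and 3006 CPM of it, and DCN had 0 reads in both recruitment libraries. With dCas9-KRAB the sum was 151 to 171 CPM with recruitment and 196 to 225 CPM in the control. LUM, with at most 68 reads in any library, was the only marker past the threshold there, upward (3.47 ± 0.45, edgeR adjusted p = 0.00237). Of the other tested markers, COL3A1 was higher (0.51 ± 0.57). DCN (-4.27 ± 1.61), COL1A1 (-0.58 ± 0.44) and THY1 (-0.43 ± 0.11) were lower. Of 6 B-lineage markers, MS4A1 and VPREB1 had 0 reads in every library, and the sum was at most 8.94 CPM.

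The LTR5HS Sa and nontarget Sp control arrays were then compared within each fusion. With dCas9-VPR, PCAT14 was higher with LTR5HS Sa than with nontarget Sp, at 9.95 and 6.21 CPM against 3.87 and 2.68 CPM, and the libraries did not overlap. The log2 fold change was 1.33 ± 0.26 (SE, edgeR adjusted p = 0.0234), and PCAT14 was the only 1 of 8 tested members past the threshold, against 4.51% of all genes. Without LTR5HS Sa replicate 1 the difference was 0.94 (adjusted p = 0.135), without nontarget Sp replicate 2 it was 1.10 (adjusted p = 0.0794), and with all 12 libraries in a single edgeR fit it was 1.31 (adjusted p = 0.0933). With the replicate number as a block it was 1.32 (edgeR adjusted p = 0.000401), and BCR also passed (0.34, adjusted p = 0.0122).

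With dCas9-KRAB the order of the arrays was opposite, with PCAT14 at 30.5 and 20.6 CPM with LTR5HS Sa and at 47.8 and 34.6 CPM with nontarget Sp. The log2 fold change of -0.67 ± 0.37 did not pass the threshold (edgeR adjusted p = 0.58), nor did any of the 7 tested members, against 0.567% of all genes. With no filter on low counts PCAT14 passed it (adjusted p = 0.0205, edgeR). The difference between the fusions in this contrast was 1.98 ± 0.52 for PCAT14 in a fit of all 12 libraries (edgeR adjusted p = 0.0732, with 2.37% of all genes past the threshold), 1.98 with the replicate block (adjusted p = 0.00623) and 2.00 with DESeq2 (adjusted p = 0.586).

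**Figure D4:**
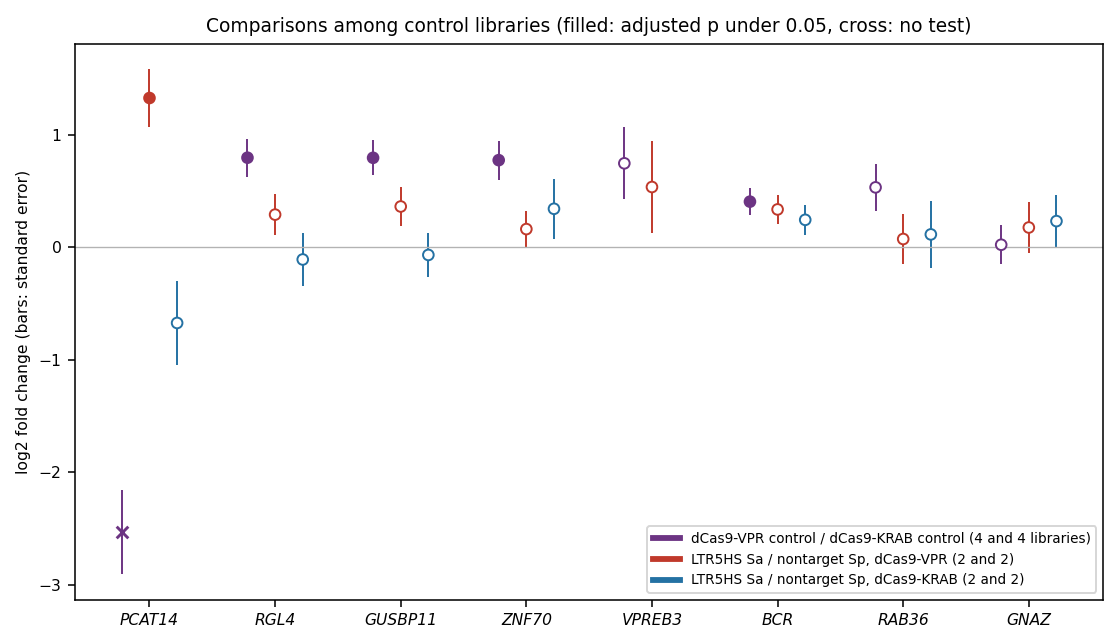
Log2 fold changes with standard errors of the members with enough counts in each of 3 comparisons among control libraries. There are 8 members, and 7 between the arrays with dCas9-KRAB, where VPREB3 was not tested. Filled points have an adjusted p under 0.05, and the cross marks the PCAT14 difference between fusions, given without a test. PCAT14 is at -2.53 between the fusions, at 1.33 between the arrays with dCas9-VPR and at -0.67 with dCas9-KRAB, and the other members lie between -0.11 and 0.80.

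Likeness to PCAT14 was measured as Pearson's r of log2 CPM over the 12 libraries among 16672 other genes. It is a description, since the libraries fall into 6 lines. The 5 genes most like it were CR1L (0.985), a complement receptor relative, MMP24 (0.983), a membrane-bound metalloproteinase, SERPINB9 (0.976), an inhibitor of granzyme B, ERVV-2 (0.974), an endogenous retroviral envelope gene, and RAB3B (0.968), a GTPase of regulated exocytosis. With dCas9-VPR recruitment CR1L was at 35.4 ± 1.06 CPM (SD, n = 2) against 1.88 ± 1.24 CPM (SD, n = 4), and with dCas9-KRAB at 0.292 ± 0.221 CPM against 8.07 ± 2.27 CPM. SERPINB9 was at 1525 ± 122 CPM against 88.1 ± 18.2 CPM, and at 16.5 ± 5.51 CPM against 187 ± 48.0 CPM.

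All 12 libraries, recruitment and control, entered this choice. The log2 difference between the control groups, dCas9-VPR minus dCas9-KRAB, ran from -2.08 ± 0.39 for CR1L to -0.31 ± 0.19 for ERVV-2. The distance from the start to the nearest guide cluster was 5.76 kb for SERPINB9, 9.36 kb for CR1L, 15.9 kb for RAB3B, 35.6 kb for MMP24 and 346 kb for ERVV-2. Among 15822 genes with a known position that were tested with dCas9-VPR, 7.57% had a cluster within 100 kb. The genes most like PCAT14 were picked for following a gene selected on its recruitment changes. Their distances are therefore a description, and setting them beside this share is no test. Among the other tested members r ran from -0.67 for GNAZ to 0.55 for ZNF70, at percentiles 3.92 and 88.1 of the genes compared.

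**Figure D5:**
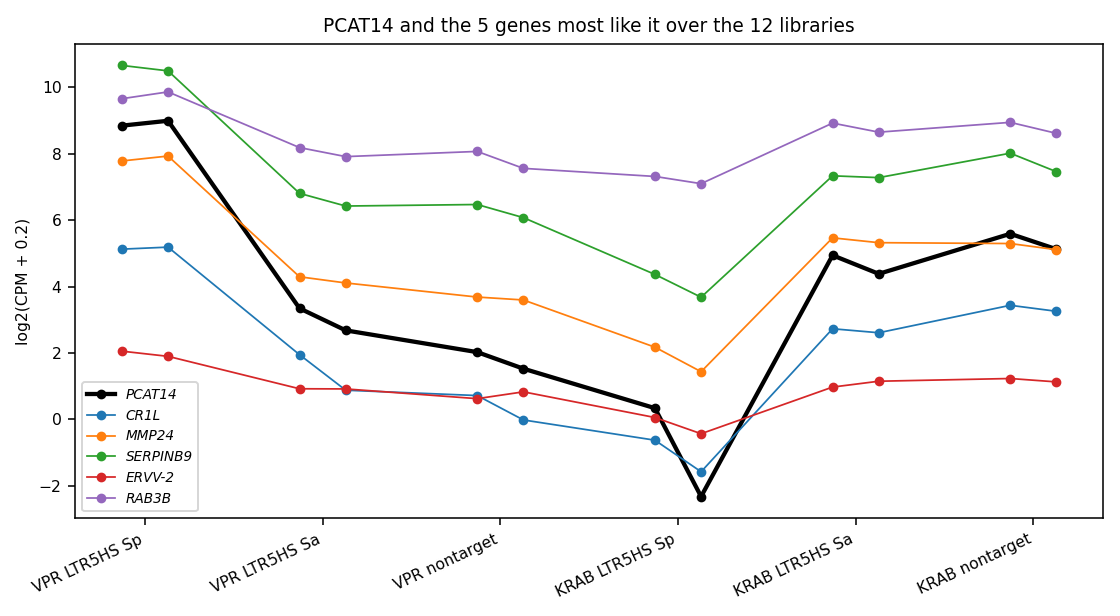
Log2(CPM + 0.2) of PCAT14 (thick line) and the 5 genes with the highest Pearson's r to it, in the 12 libraries ordered by line with replicates side by side. Lines join the libraries of a gene only to guide the eye. All 6 genes are highest in the dCas9-VPR LTR5HS Sp libraries and lowest in a dCas9-KRAB LTR5HS Sp library.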

How the data were processed

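Oligo-dT purified RNA was sequenced from the 12 libraries. According to the labels and methods, the authors trimmed reads with cutadapt 1.8.1, aligned them to hg38 with HISAT2 2.1.0 and assigned them to genes with featureCounts 1.4.6-p2. CASAVA 1.8 is also named in the submitters' processing notes. The deposited values are unnormalized whole-number counts of reads for each gene in each library. The preparation did not mark the strand, and the counting annotation is not given in the sources used here. The gene length column deposited with the counts was used for RPKM only.

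Genes were tested on the whole table with edgeR 4.0.16 in R 4.3.3 (filterByExpr, TMM, quasi-likelihood F-test, Benjamini-Hochberg adjustment, threshold 0.05), and DESeq2 1.42.0 was an alternative. Recruitment and control were compared within each fusion, as were control libraries between fusions and between arrays (all 3 arrays of a fusion in the fit). The pipeline was tested on simulated data. The members and gene lists were chosen with earlier results of these data known, and the interaction of array and fusion was added after the data were seen. All members were named, and up to 8 other genes within 1 Mb with the largest log2 fold change among those past the threshold with a fusion, the 5 genes most like PCAT14 (log2 CPM with a prior count of 2), and up to 4 genes per list with the smallest p. SLC2A11, POM121L1P, BCRP2, PAX5, the GNAO1 and GNAI1 values, the single fibroblast markers with dCas9-KRAB and the example markers were added after their values were seen.

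Guide sequences came from the study's supplementary files and were searched on both strands of GRCh38 with an NGG motif. Sites less than 1000 bp apart formed a cluster. Positions are from GENCODE 44, which matched 23287 symbols, with 1263 older symbols and 842 from RefSeq, and 1249 genes had none. The PCAT14 model of the authors is shorter (1201 bp) than the GENCODE one, so its counted start may differ. Counts of 3 and standard deviations cover counting error and the spread between the labelled biological replicates. Replicates correlated at 0.986 to 0.992 (log2 CPM), and no pair agreed within sampling noise. Equal replicate numbers deviated together within each fusion (r of replicate differences 0.181 to 0.375 in all pairs of arrays), and the pairing rests on this check, not on a label. Between fusions it was 0.0569 to 0.333 and at or under 0.1 in 2 of 9 pairs, so the numbers were not taken as pairs there.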

Additional observations from a re-analysis of the deposited data

Results flagged for a closer look

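The changes of PCAT14 went in opposite directions with the fusions, with a log2 fold change of 6.40 with dCas9-VPR and of -5.85 with dCas9-KRAB. Every recruitment library lay above the control range with the first fusion and below it with the second, and the difference itself was not tested. Of 17 control groups of 4 libraries examined over the members, 2 had a library farther from the others than Dixon's 95% limit allows, and chance gives about 1 in 20. ZNF70 was highest in dCas9-KRAB LTR5HS Sa replicate 1, at 10.7 CPM against 6.67 to 6.98 CPM in the other control libraries. IGLL1 had 0.103 CPM, from 2 reads, in dCas9-VPR nontarget Sp replicate 1 and none in the other dCas9-VPR control libraries. With no reads in the others, any read at all would be flagged, so the rate of 1 in 20 does not hold for IGLL1.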

How the results depend on the processing

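The direction of PCAT14 was the same under every alternative in CRISPRa, CRISPRi and both comparisons of control libraries. The number of members called was 2 with dCas9-VPR and 1 with dCas9-KRAB. For dCas9-VPR it was 3 with DESeq2. For dCas9-KRAB it was 0 with at least 10 counts in every library, a filter that removes PCAT14, and 2 with all 12 libraries in a single fit. Between LTR5HS Sa and nontarget Sp it was 0 with dCas9-VPR at a threshold of 0.01 and with all 12 libraries in a single fit, and 0 to 1 when libraries were left out. With dCas9-KRAB it was 1 with no filter. Neighbours called with dCas9-VPR numbered 9, and 5 at a threshold of 0.01, 5 within 500 kb, 15 within 2 Mb and 5 to 9 when libraries were left out. With dCas9-KRAB they numbered 1, and 0 at 0.01, 0 within 500 kb, 5 within 2 Mb, 2 with no filter, 3 with all libraries in a single fit and 0 to 2 when libraries were left out. The causes were not tested where the filter or window does not show them.

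With the replicate block, the number of members called was 3 with dCas9-VPR and 2 between LTR5HS Sa and nontarget Sp with dCas9-VPR. The block changed no other call among the members, other than the difference between fusions given above. Among members that passed no threshold, signs reversed for GNAZ between control fusions (-0.0039 with LTR5HS Sa libraries alone, -0.10 to 0.10 when libraries were left out). They also reversed when libraries were left out in the array comparison with dCas9-VPR for GNAZ (-0.067 to 0.38) and RAB36 (-0.14 to 0.27), and with dCas9-KRAB for GUSBP11 (-0.28 to 0.10), RGL4 (-0.45 to 0.14), ZNF70 (-0.053 to 0.63), GNAZ (-0.015 to 0.54) and RAB36 (-0.45 to 0.48). In the recruitment comparisons they reversed over all alternatives for GUSBP11 (-0.25 to 0.10) and VPREB3 (-0.65 to 0.10) with dCas9-VPR, and for RGL4 (-0.17 to 0.072), GNAZ (-0.34 to 0.078) and ZNF70 (-0.57 to 0.0043) with dCas9-KRAB. Between control fusions the number of members past the threshold, PCAT14 included, was 5, and 4 to 7 over the alternatives. PCAT14 was selected on changes that share these libraries, so its place in these counts supports nothing. Depth limits IGLL1 and VPREB3, with few or no reads.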
